A study of Mus musculus with 52 samples.

Results

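The genes described here are 10 genes of the extracellular matrix that fibroblasts make, namely Fn1, Sparc, Postn, Lox, Fbn1, Eln, Dcn, Lum, Tnc, and Bgn. They were listed by symbol out of 23043 genes with 1 transcript each in the deposited tables, and all 10 were found. No measured value entered the rule, but the choice was made with earlier results of these data known. For each gene the longest transcript was read, together with the peaks over it and within 20 kb on each side. The study used ChIP-seq to map 3 methylation states of lysine 4 of histone H3, namely H3K4me1, H3K4me2, and H3K4me3, in mouse embryonic fibroblasts (MEFs) immortalized by the 3T3 method, in which both MLL2 alleles carry loxP sites. MLL2 is a histone methyltransferase of H3K4. F/F cells carry the floxed alleles and received no tamoxifen, and FC/FC cells are the same cells after 24 h of tamoxifen and further culture, which removes exons from both alleles. All FC/FC and no F/F cultures received tamoxifen, so that MLL2 loss and the treatment cannot be told apart. There were 3 libraries for each mark and genotype, 18 in all. The study describes 3 independent experiments, but no label pairs an F/F with an FC/FC library.

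H3K4me3 is laid down around the starts of transcribed genes, H3K4me1 marks enhancers and the flanks of promoters, and H3K4me2 is found at both. Fibroblasts build the matrix of connective tissue from fibrillar collagens, elastic fibers, proteoglycans, and adhesive glycoproteins. Among the 10 genes, Fn1 (fibronectin), Tnc (tenascin C), Postn (periostin), and Sparc (osteonectin) encode glycoproteins that bind cells or collagen, Fbn1 (fibrillin-1), Eln (tropoelastin), and Lox (lysyl oxidase, which cross-links collagen and elastin) build elastic fibers, and Dcn, Lum, and Bgn (decorin, lumican, and biglycan) encode small leucine-rich proteoglycans.

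The values are RPKM, reads per kilobase of the transcript with 500 bp added at each end and scaled to the reads in transcripts. They are therefore per length, and signal at a promoter is diluted in a long gene. Summed over all transcripts, the libraries came to 26714377 to 49990775 reads, and a read in overlapping transcripts can count more than once. Of 9 fibroblast marker genes, 7 had a mean H3K4me3 RPKM above 1 in F/F cells, and none of the 19 epithelial, haematopoietic, endothelial, and neural markers did. The H3K4me2 FC/FC library NGS-6282 carries the catalogue number of the H3K4me1 antibody in its label. Its Spearman correlation over genes was 0.990 to 0.992 with libraries of H3K4me2 but 0.822 to 0.857 with those of H3K4me1. It stayed in the H3K4me2 group.

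The 10 genes fell into 3 sets by H3K4me3 at the promoter, taken as 1 kb on each side of the transcription start. Fn1, Sparc, Lox, Fbn1, Tnc, and Bgn had a wide peak in all 6 libraries, Postn and Dcn had a narrow and weak peak in all 6, and Lum and Eln had none. All 6 genes of the wide set had a peak score of 3100 in every library. The score is the negative log10 of the MACS p-value multiplied by 10, and 52.9% to 56.3% of all H3K4me3 peaks of a library were tied at 3100, so that height cannot be ranked there. Over all genes, 53.0% had an H3K4me3 promoter peak in all 6 libraries.

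The widest of these peaks was at Sparc. It measured 6996, 9127, and 9009 bp in the F/F libraries and 7156, 7505, and 8777 bp in the FC/FC libraries. This placed Sparc above 99.2% of the 12205 genes with an H3K4me3 promoter peak in all 6 libraries, whose median width was 2819 bp. The Fn1 peak was 5616, 6070, and 6047 bp wide in F/F libraries and 5818, 7317, and 5872 bp wide in FC/FC libraries, wider than in 96.7% of those genes. The median over the 6 libraries was 5025 bp at Lox, 4690 bp at Bgn, 3969 bp at Tnc, and 3714 bp at Fbn1, and each of these was wider than the median gene. At Dcn the peak was 1510 to 2017 bp wide, with scores of 208 to 505, and 10.3% of the genes had a narrower one. The Postn peak was the most variable. It was 739, 598, and 2165 bp wide in F/F libraries and 460, 1860, and 2160 bp wide in FC/FC libraries, with scores from 51.4 to 654 above a minimum of 50. The wide Postn peaks were in 1 F/F and 2 FC/FC libraries, so that the spread lay within genotypes. At 0 of the 8 genes with this peak was it wider in every FC/FC library than in every F/F library, or narrower, against 1.39% and 3.2% of all genes with such a peak. The same count was 0 of 9 genes for H3K4me2 (10.5% of all genes wider, 1.12% narrower) and 0 of 9 for H3K4me1 (5.87% and 3.45%).

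**Figure D1:**
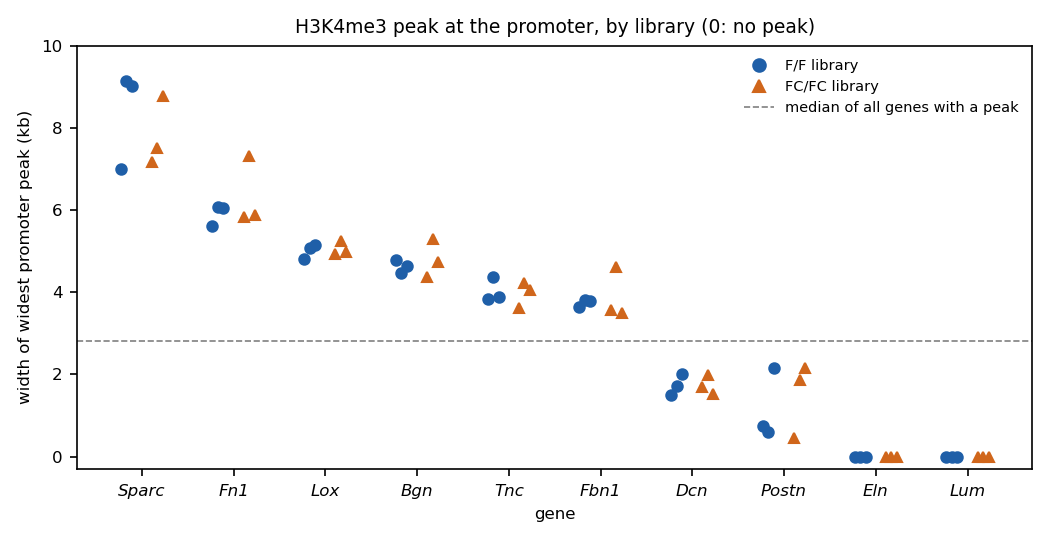
Width in kb of the widest H3K4me3 peak within 1 kb of the transcription start of each gene, 1 point per library (circles, F/F; triangles, FC/FC; 0, no peak). Sparc lies highest at 6996 to 9127 bp, Dcn and Postn lie below the median of all genes with a peak (dashed line), and Eln and Lum have no peak in any library.

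Promoter sequences are shown for the 5 genes for which one was read, Postn of the weak set and the others of the wide set. They are the 250 bases before the RefSeq start on build GRCm38.p6, read 5′ to 3′ on the strand of the gene, with CpG dinucleotides in capitals. They lie at chr11:55420081-55420330 (minus strand) for Sparc, chr2:125506439-125506688 (minus) for Fbn1, chr4:64047016-64047265 (minus) for Tnc, chrX:73483351-73483600 (plus) for Bgn, and chr3:54360857-54361106 (plus) for Postn. The RefSeq start equals that of the deposited table except at Bgn, where it lies 34 bp upstream. No promoter sequence was read for Fn1, Lox, Eln, Dcn, and Lum, so that their CpG counts and motifs are not given.
Sparc: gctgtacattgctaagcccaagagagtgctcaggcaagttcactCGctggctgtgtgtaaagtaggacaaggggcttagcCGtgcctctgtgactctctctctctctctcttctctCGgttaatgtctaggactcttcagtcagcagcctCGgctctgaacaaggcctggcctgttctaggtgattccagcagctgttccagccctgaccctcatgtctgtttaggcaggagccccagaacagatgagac
Fbn1: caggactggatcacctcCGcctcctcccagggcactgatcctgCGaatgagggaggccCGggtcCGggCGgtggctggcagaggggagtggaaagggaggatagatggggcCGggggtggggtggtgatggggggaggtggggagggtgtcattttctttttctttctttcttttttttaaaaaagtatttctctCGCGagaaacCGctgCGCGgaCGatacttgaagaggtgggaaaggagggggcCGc
Tnc: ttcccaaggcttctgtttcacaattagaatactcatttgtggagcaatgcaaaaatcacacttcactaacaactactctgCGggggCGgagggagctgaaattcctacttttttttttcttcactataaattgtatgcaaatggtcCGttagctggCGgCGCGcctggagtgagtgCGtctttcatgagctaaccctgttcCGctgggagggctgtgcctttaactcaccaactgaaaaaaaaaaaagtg
Bgn: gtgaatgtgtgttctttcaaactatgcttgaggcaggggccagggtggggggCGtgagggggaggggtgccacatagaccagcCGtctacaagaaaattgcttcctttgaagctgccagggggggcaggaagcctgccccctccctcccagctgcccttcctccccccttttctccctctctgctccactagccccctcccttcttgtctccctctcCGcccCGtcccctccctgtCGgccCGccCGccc
Postn: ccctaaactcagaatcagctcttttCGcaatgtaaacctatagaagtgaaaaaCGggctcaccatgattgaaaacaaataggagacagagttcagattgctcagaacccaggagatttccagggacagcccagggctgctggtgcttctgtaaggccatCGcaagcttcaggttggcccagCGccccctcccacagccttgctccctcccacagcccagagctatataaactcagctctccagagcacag

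The 250 bases held 13 CpG at Fbn1, 8 at Tnc, 7 at Bgn, 4 at Sparc, and 4 at Postn, and the median of 32841 RefSeq promoters was 6. Sparc, with the widest H3K4me3 peak of the 10 genes, and Postn, with a narrow one, thus had the same CpG count, above that of 37.8% of promoters. At Fbn1 the count exceeded 68.5% of promoters. Common promoter motifs were sought on both strands. The TATA box (TATAAA) was found at Postn, beginning at position -26 where -1 is the last base before the start, and at Tnc at position -126, and 12.4% of all promoters hold it. The GC box (GGGCGG) was found at Fbn1, Tnc, and Bgn, with 3 matches at Bgn, 2 of them overlapping, and 32.7% of promoters hold it. The CCAAT box (spelled as its name), which 33.9% of promoters hold, was in none of the 5 windows, and the same was true of the AP-1 site (TGANTCA), which 6.75% hold.

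Over the whole transcript, Sparc had the highest H3K4me3 level per length. It was 7.51, 8.04, and 7.92 RPKM in F/F and 7.48, 8.18, and 7.67 in FC/FC libraries. Lox had 7.11, 6.72, and 7.30 RPKM in F/F and 7.17, 6.94, and 7.97 in FC/FC, and Bgn had 5.81, 6.33, and 6.55 in F/F and 6.14, 6.51, and 6.63 in FC/FC. In the F/F libraries these 3 genes lay above 92.5%, 91.3%, and 90.0% of all genes. Fn1 followed with a mean of 2.17 ± 0.235 (SD, n = 3) in F/F cells. Tnc (0.773 ± 0.0747) and Fbn1 (0.681 ± 0.0332), whose transcripts span 87231 and 205845 bp, had low RPKM in spite of their wide peaks, and their F/F libraries overlapped. Dcn (0.443 ± 0.0493) and Lum (0.390 ± 0.0540) also overlapped, although only Dcn had a promoter peak. Postn (0.267 ± 0.0465) and Eln (0.167 ± 0.000692) were lowest. All other neighbors in this order were separate in the F/F libraries.

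H3K4me2 gave nearly the same order. Sparc (6.27 ± 0.240), Bgn (5.97 ± 0.193), and Lox (4.81 ± 0.161) were again highest in F/F cells, Fn1 was at 1.34 ± 0.0666, and Eln was lowest at 0.180 ± 0.0330. The order differed for H3K4me1. Sparc was highest with 3.79 ± 0.122 RPKM, above 98.6% of genes, and Bgn had 2.10 ± 0.171. Lum followed with 1.61, 1.52, and 2.17 RPKM in F/F and 1.89, 2.02, and 2.42 in FC/FC libraries. Its F/F mean lay above 85.7% of genes for H3K4me1, 54.2% for H3K4me2, and 48.0% for H3K4me3. Fbn1 likewise lay above 83.1% of genes for H3K4me1 and 55.2% for H3K4me3, whereas Fn1 lay above 58.1% and 74.2%. Postn (0.611 ± 0.0801) and Eln (0.595 ± 0.0576) were the lowest for H3K4me1 and their libraries overlapped.

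**Figure D2:**
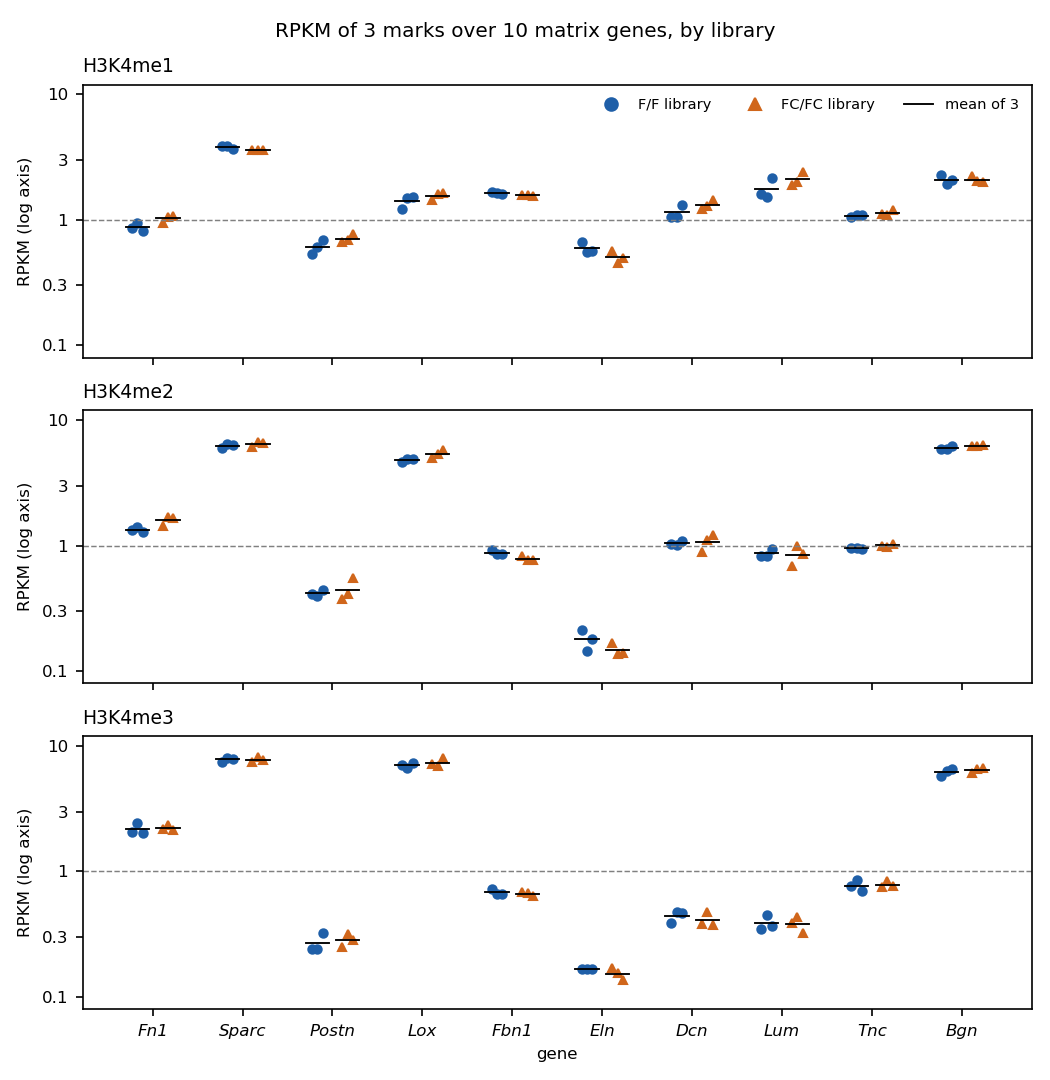
RPKM (log axis) of H3K4me1, H3K4me2, and H3K4me3 over the 10 genes, 1 point per library (circles, F/F; triangles, FC/FC), with black bars for the mean of 3 libraries and a dashed line at 1 RPKM. Sparc, Lox, and Bgn stand highest for H3K4me2 and H3K4me3, Lum and Fbn1 rank higher for H3K4me1, and the genotypes lie close together at every gene.

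The layout of the peaks was then compared between genes. Over the 10 genes and their flanks, peaks of the 6 libraries merged into 102 regions for H3K4me1, 62 for H3K4me2, and 16 for H3K4me3, of which 60, 46, and 11 had a peak in all 6 libraries. Of the H3K4me1 regions present in all 6, 50 lay more than 1 kb from the start of their gene. These comprised 11 upstream of the gene, 27 at least partly over it, and 12 downstream. Of the 50, 33 overlapped an H3K4me2 region also present in all 6. Of the 50, 6 overlapped an H3K4me3 region present in all 6, at Fn1, Sparc, Lox, Fbn1, Eln, and Bgn. The word distal, as used below, thus refers to position alone. Positions below are those of merged regions relative to the transcription start, with negative values upstream, and a mean score is the mean over the peaks of a region.

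Among the adhesive glycoprotein genes, Fn1 (chr1:71585473-71653234, minus strand, mm10) had a compact layout. The merged H3K4me3 region ran from -1658 to 5729 bp and that of H3K4me2 from -2510 to 7466 bp. H3K4me1 lay on both sides of the start, from -3083 to -346 bp and from 1901 to 7222 bp, and no H3K4me1 peak covered the start in any library. Apart from these, 2 H3K4me1 regions were present in all 6 libraries, 1 of 4996 bp between -23125 and -18130 bp and 1 downstream of the gene, and neither overlapped an H3K4me2 region present in all 6. Tnc (chr4:63959785-64047015, minus) had 6 distal H3K4me1 regions in all 6 libraries, 5 of which lay at least partly over the gene. Its H3K4me1 covered the start in 1 library only, and the upstream region between -19807 and -17172 bp held H3K4me2 in all 6. Postn (chr3:54361107-54391041, plus) had 1 distal H3K4me1 region in all 6, downstream of the gene, and H3K4me1 covered its start in all 6 libraries.

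Sparc (chr11:55394159-55420080, minus) was covered most densely. Peaks of H3K4me1 covered 42537 ± 1191 bp of the 65922 bp of the gene and its flanks in F/F cells. A merged H3K4me1 region of 11795 bp ran from -11404 bp to just past the start and another of 17103 bp lay within the gene. In single libraries the widest H3K4me1 peak within 1 kb of the start measured 2064 to 11709 bp. H3K4me2 peaks at the promoter were 13271 to 17212 bp wide, wider than in 99.7% of the 13937 genes with an H3K4me2 promoter peak in all 6 libraries. Upstream, 3 further H3K4me2 regions lay between -14007 and -3215 bp in all 6 libraries.

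The elastic fiber genes had unlike layouts. Fbn1 (chr2:125300594-125506438, minus) held 19 of the 50 distal H3K4me1 regions, 17 of them at least partly over the gene, and 10 of the 19 overlapped H3K4me2. The widest, from 200342 to 217284 bp, ran past the end of Fbn1. In F/F cells H3K4me1 covered 74012 ± 7316 bp and H3K4me3 3747 ± 90.9 bp of its 245845 bp window. Lox (chr18:52516060-52529867, minus) had 4 distal H3K4me1 regions, all of them with H3K4me2, the strongest between -7763 and -2451 bp with a mean score of 1534. Eln (chr5:134702596-134747254, minus) had no H3K4me1 or H3K4me3 peak at its promoter in any library. A small H3K4me2 peak of 652 to 938 bp covered its start in all 6 libraries, with scores of 53.6 to 239, and 0.7% of genes with such a peak in all 6 libraries had a narrower one. The strong H3K4me2 and H3K4me3 region in its window, at chr5:134687147-134689960 for H3K4me3, lay over the start of the neighboring gene Limk1, 14006 bp beyond the end of Eln.

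The 3 proteoglycan genes had H3K4me1 at their promoters in all 6 libraries and differed in the higher methylation states. Bgn (chrX:73483635-73495936, plus) had a merged H3K4me1 region of 10141 bp that ended at the start. In single libraries its widest H3K4me1 peak within 1 kb of the start measured only 1350 to 3813 bp. Bgn also had 3 upstream H3K4me2 regions in all 6 libraries and H3K4me3 at the promoter. Dcn (chr10:97479500-97518162, plus) had H3K4me1 over the start, H3K4me2 with a score of 3100 in every library, and a weak H3K4me3 peak. Lum (chr10:97565501-97572703, plus), on the same chromosome, had H3K4me1 over its start in all 6 libraries, a weak H3K4me2 peak within 1 kb of it in 5 (not in NGS-6282) and over it in 4, and no H3K4me3. The H3K4me2 region of Lum with the highest mean score, 1807, lay upstream between -10639 and -7940 bp, whereas its promoter peaks scored 208 to 499.7.

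H3K4me1 thus covered the start itself in all 6 libraries at Sparc, Postn, Dcn, and Lum, and in none at Fn1, Lox, and Eln. Among all genes with an H3K4me3 promoter peak in all 6 libraries, 9.69% had the start under H3K4me1 in all 6 and 60.8% in none. Among genes without H3K4me3 at the promoter, where Lum and Eln belong, these shares were 4.65% and 88.2%.

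**Figure D3:**
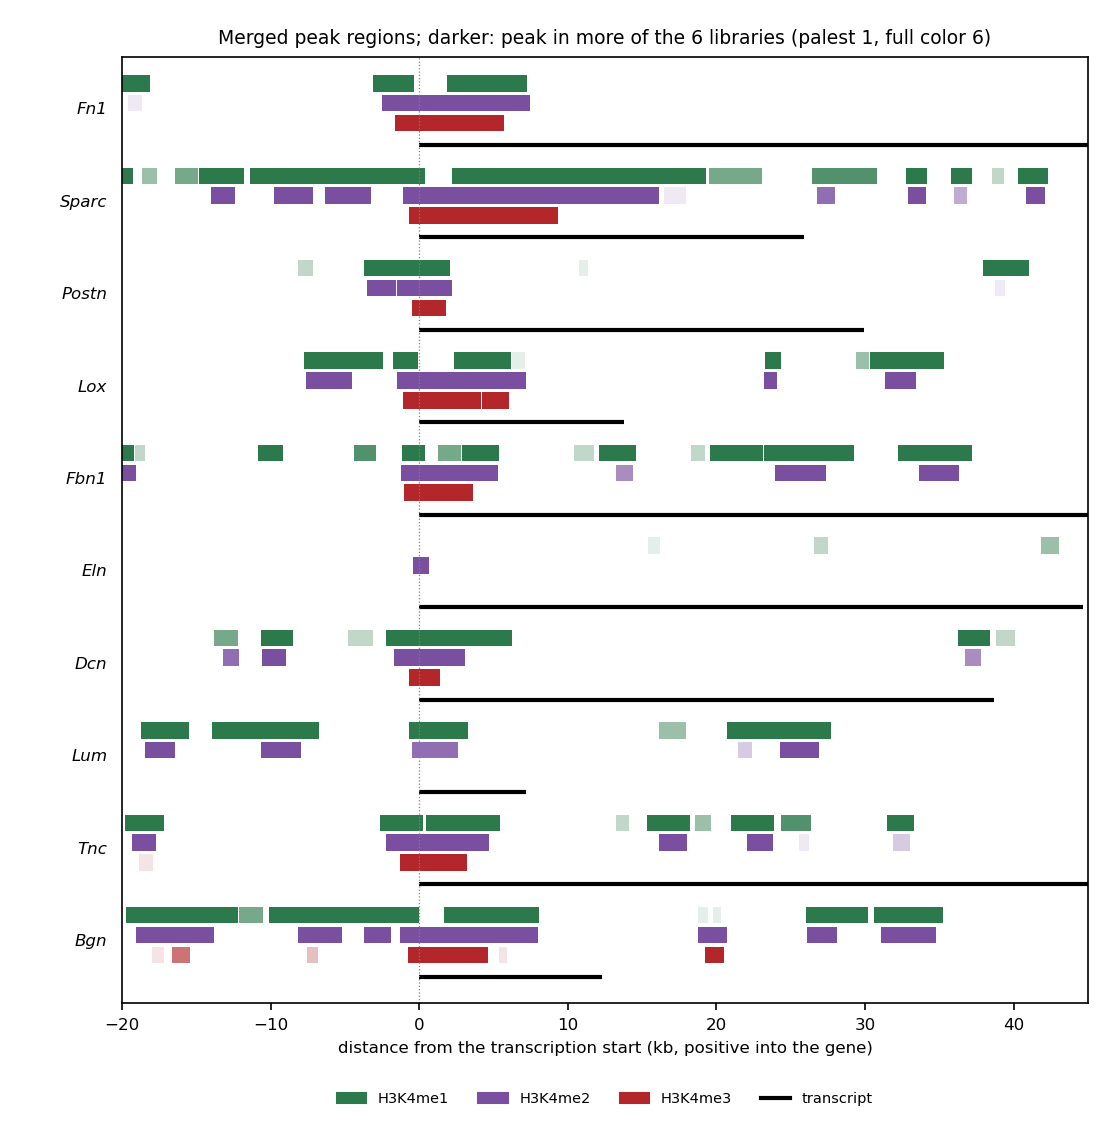
Merged peak regions of H3K4me1, H3K4me2, and H3K4me3 by distance from the transcription start in kb, with positive values into the gene, for the 10 genes from 20 kb upstream to 45 kb downstream. Full color marks a peak in all 6 libraries, paler color in fewer, and the black line is the transcript, beyond whose end only 20 kb were searched. Sparc and Bgn are covered over long stretches upstream of the start, and Lum and Eln lack H3K4me3.

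The comparison of FC/FC with F/F cells asks whether H3K4 methylation at these genes differed after MLL2 excision. It was made on log2(RPKM + 0.1) with limma over every gene that exceeded 1 RPKM in 3 or more of a mark's 6 libraries, and Benjamini-Hochberg adjusted p-values under 0.05 were called. Of the 10 genes, 7 were tested for H3K4me1, 5 for H3K4me2, and 4 for H3K4me3, and no gene was called for any mark. In all genes tested, 0% were called in either direction for H3K4me1 and H3K4me3, and for H3K4me2 0.591% were called higher and 1.55% lower in FC/FC cells (59 and 155 genes, or 28 and 406 with each library centered on its median). At an unadjusted p under 0.05 there were none of 7 for H3K4me1 (25% of all genes tested), 2 of 5 for H3K4me2 (29%), and none of 4 for H3K4me3 (3.73%). Limma-voom on the recovered reads called none of the 10 genes either, whereas over all genes its calls came to 1.39% upward and 6.88% downward for H3K4me1, to 1.07% and 2.62% for H3K4me2, and to 0% for H3K4me3. Fold changes are on the log2(RPKM + 0.1) scale, which understates those of low genes.

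For H3K4me2, the fold change on this scale was largest at Fn1 among the 5 tested genes. Its RPKM was 1.32, 1.42, and 1.29 in F/F and 1.43, 1.69, and 1.67 in FC/FC libraries. The FC/FC values lay above the F/F values, the lowest of them by little, and the log2 fold change was 0.23 (95% confidence interval, 0.06 to 0.40, limma adjusted p = 0.109). Lox had 4.63, 4.93, and 4.89 RPKM in F/F and 5.02, 5.39, and 5.76 in FC/FC libraries, again without overlap. Its log2 fold change was 0.16 (interval, 0.02 to 0.30, adjusted p = 0.144 in limma). The library NGS-6282 had the lowest of the 3 FC/FC values at both genes. Without it, both were called, with log2 fold changes of 0.30 (limma adjusted p = 0.0111) at Fn1 and 0.21 (0.0230) at Lox, but so were 2105 genes higher and 847 lower in the whole table, against 59 and 155 with it. Bgn was also higher in every FC/FC library, at 6.19, 6.23, and 6.37 RPKM against 5.84, 5.86, and 6.19, with values of the 2 genotypes nearly touching and a log2 fold change of 0.07 (interval, -0.03 to 0.17). Such separation upward was seen at 3 of the 5 tested genes and at 27.2% of all genes tested, and no tested gene of the 10 separated downward (8.43%). All 5 log2 fold changes were positive, with a median of 0.07, and the median of all 9986 genes tested was also 0.07. With each library centered on its median, 3 of the 5 were positive. The other 5 genes did not pass the filter. Among these, Tnc had 0.967, 0.966, and 0.944 RPKM in F/F and 0.998, 0.981, and 1.03 in FC/FC libraries, all of the latter being higher. Fbn1 had 0.918, 0.862, and 0.863 RPKM in F/F and 0.821, 0.773, and 0.769 in FC/FC libraries, all of the latter being lower. With no filter on RPKM its log2 fold change was -0.14 (limma adjusted p = 0.148, with the unadjusted p under 0.05), beside -0.17 at Eln, -0.04 at Lum, 0.06 at Postn, and 0.06 at Tnc, so that 7 of the 10 were positive and none was called. Of all 23043 genes in that fit, 14011 were positive, 5402 had an unadjusted p under 0.05, and 69 were called higher and 384 lower.

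For H3K4me1, the groups did not overlap at Sparc, Fbn1, and Tnc among the tested genes. Sparc had 3.86, 3.87, and 3.65 RPKM in F/F and 3.62, 3.59, and 3.63 in FC/FC libraries, a log2 fold change of -0.07 (interval, -0.18 to 0.04). Fbn1 had 1.65, 1.65, and 1.60 against 1.57, 1.57, and 1.56 RPKM, a log2 fold change of -0.06 (interval, -0.17 to 0.05). At Tnc the values were 1.06, 1.09, and 1.09 against 1.11, 1.09, and 1.19 RPKM, so that all 3 F/F values lay below, and the log2 fold change was 0.06 (interval, -0.06 to 0.19). Over all genes tested, 18.7% separated downward and 11.8% upward. The widest interval was that of Lum, with a log2 fold change of 0.25 (interval, -0.05 to 0.55, limma adjusted p = 0.265), where the F/F libraries alone spanned 1.52 to 2.17 RPKM. Dcn followed with 0.18 (interval, -0.03 to 0.39). Single libraries moved both values. Lum was at 0.40 without NGS-6293, 0.16 without NGS-6285, and 0.15 without NGS-6297, and Dcn was at 0.28 without NGS-6293 and 0.12 without NGS-6297. Both had an unadjusted p under 0.05 without NGS-6293 and with limma-voom, and neither was called in any of these fits. Of all 8567 genes tested, 2095 had such a p without NGS-6293 and 2390 with limma-voom. Fn1 was above 1 RPKM only in 2 FC/FC libraries and so was not tested, with 0.865, 0.938, and 0.823 RPKM in F/F and 0.939, 1.06, and 1.08 in FC/FC libraries. All of its FC/FC values were higher, the lowest by very little. With no filter on RPKM its log2 fold change was 0.21 (limma adjusted p = 0.157, with the unadjusted p under 0.05). In that fit Postn was at 0.19 and Eln at -0.20, 6 of the 10 genes were positive, and none was called. Of all 23043 genes in it, 15001 were positive, 5603 had an unadjusted p under 0.05, and none was called.

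For H3K4me3, the log2 fold changes of the 4 tested genes were -0.01 at Sparc (interval, -0.14 to 0.13), 0.04 at Fn1 (-0.14 to 0.22), 0.04 at Bgn (-0.10 to 0.19), and 0.06 at Lox (-0.10 to 0.22). No gene of the 10 separated between the genotypes, and 3.41% and 3.87% of the genes tested did so upward and downward. For 5 genes, Postn, Eln, Lum, Fbn1, and Tnc, neither H3K4me2 nor H3K4me3 was tested. Their H3K4me3 means in FC/FC cells were 0.284 ± 0.0332, 0.154 ± 0.0165, 0.382 ± 0.0555, 0.665 ± 0.0219, and 0.783 ± 0.0455 RPKM in that order, and the libraries of the genotypes overlapped at each.

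**Figure D4:**
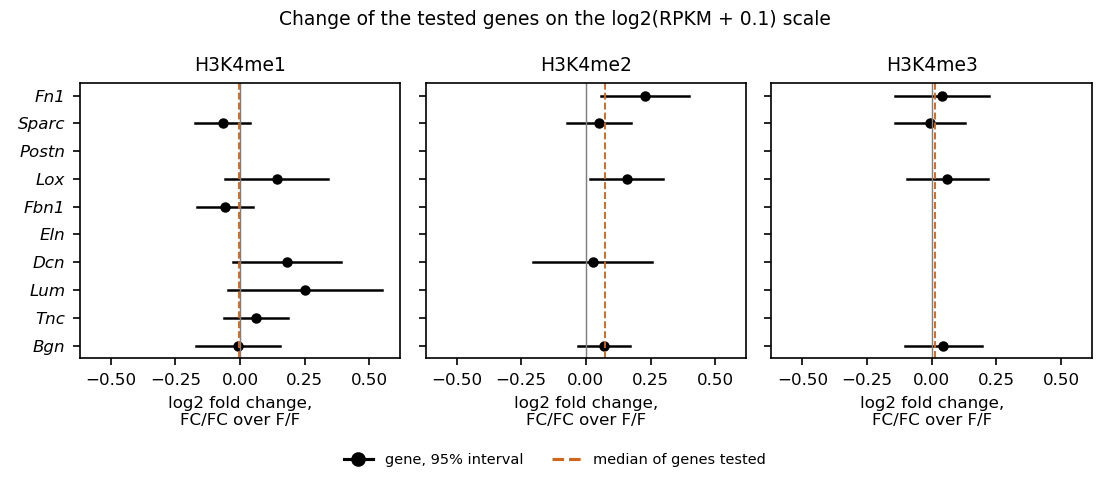
Log2 fold change of FC/FC over F/F on the log2(RPKM + 0.1) scale with its 95% confidence interval from limma, for the genes that passed the filter on RPKM for each mark. The dashed line is the median of all genes tested, and only the H3K4me2 intervals of Fn1 (0.06 to 0.40) and Lox (0.02 to 0.30) lie above 0, neither with an adjusted p under 0.05.

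The length covered by peaks within 20 kb was also compared, with an exact permutation test (two-sided) whose smallest p is 0.1 for groups of 3. It separated the genotypes at 1 gene for each mark, always downward in FC/FC cells, against 8.67%, 8.4%, and 4.48% of genes with a peak for H3K4me1, H3K4me2, and H3K4me3. Upward separation was seen at 0 of the 10 genes and at 5.76%, 4.8%, and 1.33% of all genes. For H3K4me2 this gene was Fbn1, with 30026, 31335, and 31573 bp covered in F/F and 27873, 28883, and 29982 bp in FC/FC libraries (exact permutation p = 0.1). The F/F libraries also had more H3K4me2 peaks in all, 62100 to 70437 against 56112 to 58585, and once each library was reduced to an equal count of its best-scoring peaks the Fbn1 groups overlapped. For H3K4me1 and H3K4me3 it was the window of Eln. H3K4me1 covered 3644, 3358, and 3977 bp in F/F and 814, 2665, and 2050 bp in FC/FC libraries (exact permutation p = 0.1), in weak regions of which the highest mean score was 121. Both regions of H3K4me1 found in all 3 F/F libraries there flanked the start of Limk1. Over the gene alone, without the flanks, the groups overlapped. H3K4me3 covered 2630, 2297, and 2761 bp in F/F and 2067, 2138, and 2229 bp in FC/FC libraries (exact permutation p = 0.1), at the start of Limk1 and not at Eln.

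A single merged region at the 10 genes was present in every F/F library and absent from every FC/FC library, and 0 showed the reverse. It was an H3K4me2 region at chr11:55383187-55384112, downstream of Sparc with no other gene of the table in the window, with scores of 58.5, 57.5, and 130 in the F/F libraries. This was 1 of 62 H3K4me2 regions, and 2.08% of all H3K4me2 regions behaved in this way, and 0.101% in reverse. For H3K4me1 it was 0 of 102 regions in either direction (0.793% and 0.43% of all regions), and for H3K4me3 0 of 16 (0.531% and 0.0645%). With equal numbers of top-scoring peaks it was no longer separate. An H3K4me1 region at the same place was present in all 6 libraries. Its middle 200 bases, at chr11:55383550-55383749 on the plus strand of GRCm38.p6, are shown because no other region of these genes was separate, with the 4 CpG in capitals.
Sparc downstream region: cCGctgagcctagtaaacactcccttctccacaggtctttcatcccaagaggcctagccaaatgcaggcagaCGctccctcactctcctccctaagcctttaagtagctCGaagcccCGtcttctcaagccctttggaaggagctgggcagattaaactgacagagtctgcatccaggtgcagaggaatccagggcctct

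Other matrix genes were read from lists of related genes, which also hold some of the genes described here. Eln is in the elastic fiber list, Bgn among the small leucine-rich proteoglycans, and Fn1 among the matricellular and adhesive glycoproteins. For H3K4me2, 1 of the 21 tested of 29 matrix proteases and inhibitors was called, Mmp2 (gelatinase A, which cleaves denatured collagen), with 2.23 ± 0.0444 RPKM in F/F cells and 1.74 ± 0.0791 in FC/FC cells and a log2 fold change of -0.34 (limma adjusted p = 0.0302). Of all genes tested for H3K4me2, 1.55% were called lower. None was called among the 14 tested of 22 elastic fiber genes, the 8 of 13 small leucine-rich proteoglycans, the 13 of 28 matricellular and adhesive glycoproteins, the 7 of 21 basement membrane genes, the 4 of 11 fibrillar collagens, and the 9 of 17 matrix receptors. The smallest p-values in these lists belonged to Loxl4 (-0.32 on the log2 scale), Prelp (-0.47), Fn1, Col4a2 (-0.21), Col5a1 (-0.08), and Itgb5 (-0.19). For H3K4me1 and H3K4me3 no gene of any list was called. The genes with the smallest p for H3K4me1 in 5 of the lists were Mfap4 (-0.28), Fmod (-0.22), Tnxb (-0.28), Col1a1 (-0.20), and Itga11 (-0.22), with limma adjusted p-values from 0.0750 to 0.126. The lists had median log2 fold changes for H3K4me1 from -0.10 to 0.09, the proteoglycans highest. The median was 0.06 for the 7 tested genes described here and -0.0029 for all genes tested. Bgn is both among those 7 and in the proteoglycan list, so that the medians are not independent. Among the markers of other cell types 1 gene was called, the epithelial cadherin Cdh1, for H3K4me2, at 1.19 ± 0.0793 RPKM in F/F cells and 0.818 ± 0.0676 in FC/FC cells with a log2 fold change of -0.49 (limma adjusted p = 0.0328). Without the F/F library NGS-6294 no gene of the whole table was called for H3K4me2, so that neither Mmp2 nor Cdh1 was. The summed H3K4me2 of the 6 epithelial markers ranged from 1.89 to 2.55 RPKM over the libraries, and its part in any result was not tested.

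Promoter peaks of H3K4me3 in all 6 libraries were found at 8 of the 10 genes, 7 of 11 fibrillar collagens, and 23 of 29 matrix proteases and inhibitors. For H3K4me1 the counts were 9, 8, and 19 and for H3K4me2 9, 10, and 24, against 37.9% and 60.5% of all genes.

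The genes whose pattern over the 18 libraries was most like that of each gene, by Euclidean distance of log2(RPKM + 0.1) and leaving out genes within 20 kb of it, were Gars for Fn1 (0.418), Cdc42ep3 for Sparc (0.377), Btf3 for Lox (0.430), Fzr1 for Bgn (0.410), Cers6 for Fbn1 (0.327), Prdm2 for Tnc (0.401), Fgd5 for Eln (0.383), Il15 for Postn (0.643), Akap13 for Dcn (0.664), and Gm20125 for Lum (0.568). The distances were largest for Postn, Dcn, and Lum, while the median distance to all genes ran from 6.09 for Eln to 12.9 for Sparc. The measure reads level and mark ratios and is a description.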

How the data were processed

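Of the 52 samples of the study, the 18 H3K4me1, H3K4me2, and H3K4me3 libraries entered the analysis and 34 did not. Base calls came from CASAVA 1.4 and the alignment to mm10 from BWA 0.7.10. The authors deposited RPKM per RefSeq transcript, extended by 500 bp at each end. They called peaks with MACS 1.4.2 for each library against an H3 library, and the score of the deposited peaks is the negative log10 of the MACS p-value multiplied by 10. Of the deposited RPKM values, 100% were whole reads within 0.01 read once multiplied by the extended length. Transcripts under 250 bp were left out and the longest transcript per symbol was kept.

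The members and gene lists were chosen with earlier results of these data known. The text names the 10 members, the genes called and the 1 tested gene with the smallest p in each list and mark, and the gene nearest to each member, except that 2 list genes for H3K4me1, the list genes with the smallest p for H3K4me3, and those of the marker lists other than the called Cdh1 are not reported here. Limma 3.58.1 in R 4.3.3 was fitted for each mark over every gene that exceeded 1 RPKM in 3 or more libraries, on log2(RPKM + 0.1), with a mean-variance trend. On data simulated for H3K4me1, H3K4me2, and H3K4me3, with 100 genes changed at each size, it recovered 82%, 86%, and 77% of log2 changes of 0.5 and 100%, 95%, and 98% of changes of 1. The simulated noise was independent between genes, without shifts shared by the genes of a library. Both sizes exceed the largest log2 fold change among the tested members, 0.25, and recovery of changes that small was not tested. Peak starts were converted to 1-based positions. Merged regions were overlapped by at least 1 bp. The authors dropped peaks in blacklisted regions before their own analysis, and whether the deposited lists are from before or after that step is not given in the sources used here. Python 3.11.15, numpy 2.4.6, pandas 2.3.3, and matplotlib 3.10.9 were used. The alternatives were other pseudocounts (0.01 and 1), filters, transcripts, scalings, tests, peak thresholds, and windows, and leaving out each library. Exons are those of RefSeq on GRCm38.p6, whose spans differ from the deposited transcripts at Eln, Dcn, and Bgn. Depth covers counting error only, and the p-values measure the spread between 3 libraries.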

Additional observations from a re-analysis of the deposited data

How the results depend on the processing

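No paired analysis was possible because no label pairs an F/F with an FC/FC library. The count of called genes among the 10 stayed at 0 for H3K4me1 and H3K4me3 under every alternative run, and for H3K4me2 under all but 1. Leaving out single libraries gave 0 to 2 genes called higher for H3K4me2, the 2 being Fn1 (0.30) and Lox (0.21) without NGS-6282. Counting each gene under each alternative, the log2 fold change changed sign 3 times for H3K4me1, 4 times for H3K4me2, and 6 times for H3K4me3, and kept both sign and call 101, 68, and 54 times. For H3K4me1 these were Bgn without NGS-6277 (0.052), NGS-6289 (0.012), or NGS-6297 (0.024). For H3K4me2 they were Sparc with centered libraries (-0.0050) and quantile normalization (-0.025), and Dcn with centered libraries (-0.029) and without NGS-6298 (-0.060). For H3K4me3 they were Fn1 without NGS-6295 (-0.0069), Sparc without NGS-6287 (0.012), NGS-6295 (0.00019), NGS-6283 (0.019), or NGS-6299 (0.00060), and Bgn without NGS-6279 (-0.0043).

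The number of genes whose covered length separated the genotypes was 1 for each mark. For H3K4me1 it became 0 with scores of at least 100 or the gene body alone and 2 with 10 kb flanks or peak midpoints, and ran from 2 to 3 when single libraries were left out. For H3K4me2 it became 0 with scores of at least 100, with equal numbers of top-scoring peaks, or with midpoints, and ran from 1 to 4. For H3K4me3 it became 0 with 10 kb flanks or the gene body alone and ran from 1 to 3. The number of regions found in all libraries of one genotype and in none of the other was 0 for H3K4me1, and 1 with scores of at least 100 or equal numbers of peaks, and 0 to 3 without single libraries. For H3K4me2 it was 1, then 2 with scores of at least 100 and 0 with equal numbers of peaks, 10 kb flanks, or the gene body alone, and 1 to 3 without single libraries. For H3K4me3 it was 0, and 0 to 1 without single libraries. The cause of these shifts was not tested. Voom calls over all genes differed from those of limma for H3K4me1 (119 higher and 589 lower against 0 and 0) and H3K4me2 (107 and 262 against 59 and 155). With centered libraries 28 genes were called higher and 406 lower for H3K4me2 and 16 and 71 for H3K4me1, and leaving out single libraries gave 0 to 2105 higher and 0 to 847 lower for H3K4me2, the most without NGS-6282. The lowest scores of the Postn H3K4me3 and Eln H3K4me2 promoter peaks (51.4 and 53.6) lie near the minimum of 50, where a peak can be missed, and the part of depth in this was not tested.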
